A study of Homo sapiens with 6 samples.

Results

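The SOX and KLF transcription factors were followed in NCI-N87 cells, an established gastric carcinoma cell line, with and without knockdown of SCAMP1, a membrane protein of the vesicle recycling route. Members were all protein-coding genes whose symbol is SOX or KLF followed only by a number. There were 37 of them, 19 SOX and 18 KLF genes, among the 58735 genes of the expression table. The authors' transcription factor column put all 19 SOX genes in the HMG family and 17 of the KLF genes in the zf-C2H2 family, and gave KLF18 no family. RNA-seq was available for 6 libraries, 3 of the control group (shNC) and 3 of the knockdown group (shScamp1). Cells of both groups had been infected with a puromycin-resistance lentivirus, and puromycin served to obtain stable populations. The study's methods do not say whether it was still present when RNA was taken. The study's methods call the groups shCtrl and shS1#1 and describe the control as the empty vector, so the shNC cells carried no scrambled shRNA by that account. The knockdown group holds a single shRNA, and effects of that sequence other than SCAMP1 loss cannot be told apart from those of SCAMP1 loss. The labels call the 3 libraries of a group biological replicates without saying whether they came from separate infections or cultures, so the p-values measure the spread between these libraries only.

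SOX proteins bind DNA in the minor groove through the HMG box, a domain named after the high mobility group proteins, and bend it. They usually act with partner factors and set cell identity in embryos and in adult stem cell compartments, the base of the intestinal and gastric glands included. KLF proteins, the Krüppel-like factors, bind GC-rich and CACCC sequences through C2H2 zinc fingers at their C-terminus. They are sorted by the rest of the protein: KLF3, KLF8 and KLF12 recruit the corepressor CtBP, the group of KLF1, KLF2 and KLF4 to KLF7 acts mostly as activators, and KLF9, KLF10, KLF11, KLF13, KLF14 and KLF16 recruit the corepressor SIN3. In the gut epithelium KLF5 is known for the dividing cells and KLF4 for the differentiated ones.

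Within both families, close relatives changed in opposite directions, and the sequences of these relatives are shown because they decide whether reads can be told apart. Each stretch below is the most similar window of 90 coding bases of the 2 genes, which falls in the DNA-binding domain, aligned without gaps and taken from GENCODE 29 transcripts on GRCh38, with the bases that differ between the 2 genes in capitals. The KLF3 stretch spans chr4:38694825-38697089 on the forward strand with an intron inside it, and the KLF12 stretch chr13:73695664-73715449 on the reverse strand, also across an intron.
KLF3: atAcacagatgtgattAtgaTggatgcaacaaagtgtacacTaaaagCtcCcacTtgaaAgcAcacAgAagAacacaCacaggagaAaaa
KLF12: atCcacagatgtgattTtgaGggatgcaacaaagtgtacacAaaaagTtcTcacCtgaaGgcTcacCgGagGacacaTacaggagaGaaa
The SOX9 stretch lies at chr17:72121725-72121814 and the SOX8 stretch at chr16:982247-982336, both on the forward strand.
SOX9: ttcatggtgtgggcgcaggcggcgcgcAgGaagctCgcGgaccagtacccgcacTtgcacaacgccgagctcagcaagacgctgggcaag
SOX8: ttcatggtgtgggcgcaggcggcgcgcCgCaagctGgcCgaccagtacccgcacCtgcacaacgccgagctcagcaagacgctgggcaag
The SOX4 stretch lies at chr6:21594718-21594807 and the SOX12 stretch at chr20:326051-326140, both on the forward strand.
SOX4: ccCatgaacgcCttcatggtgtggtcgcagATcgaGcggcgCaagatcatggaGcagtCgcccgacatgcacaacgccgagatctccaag
SOX12: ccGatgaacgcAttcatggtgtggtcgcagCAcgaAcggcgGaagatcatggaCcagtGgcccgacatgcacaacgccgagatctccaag
KLF3 and KLF12 agreed at 76 of 90 bases, SOX9 and SOX8 at 85 and SOX4 and SOX12 at 82. Over the whole transcripts of the members tested, the longest run of identical bases was 20 between KLF3 and KLF12, 37 between SOX9 and SOX8 and 33 between SOX4 and SOX12. SOX2 and SOX21 shared the longest run of any pair of tested members within a family, 60 bases. The read length is not given in the sources used here, so how many reads the shared runs touch was not tested.

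The deposited values are FPKM, fragments per length of gene and per size of library, which put genes of different length on one scale. Multiplied by gene length, 100% of the values above 0 in every library came out as whole multiples of a single step (tolerance 0.05 of a step), which gave the reads behind each value: 15064905 to 15988700 reads on genes in the shNC and 14311769 to 14667628 in the shScamp1 libraries. The mitochondrial share of reads was 9.21% in shScamp1 replicate 2 and 6.09% to 6.78% in the other libraries. SCAMP1 itself (ENSG00000085365) stood at 12.6, 12.1 and 11.5 FPKM in shNC and at 1.70, 1.37 and 1.99 FPKM in shScamp1, a log2 fold change of -2.78 ± 0.14 (SE, limma with Benjamini-Hochberg adjustment, adjusted p = 0.000248). Epithelial markers were present, with 5 of 7 called higher and 0 lower: KRT18 (log2 fold change 1.19), KRT8 (0.97), CEACAM5 (0.83) and KRT19 (0.75) led, and the summed level of the 7 was 5430 to 5711 FPKM in shNC and 9071 to 10024 FPKM in shScamp1. The 5 fibroblast markers summed to 0.533 to 0.675 FPKM in shNC and 0.487 to 0.773 FPKM in shScamp1, with COL1A2, DCN and LUM at 0 in all libraries. The 3 endothelial markers summed to 0.139 to 0.235 and 0.381 to 0.612 FPKM, and the 4 leukocyte markers to at most 0.0578 and 0.0628 FPKM, with MS4A1 at 0. Tests were run in limma after a log2(FPKM + 0.1) transform on those genes whose mean over the 6 libraries reached 0.5 FPKM, and a gene was called at an adjusted p under 0.05 over all 15556 genes tested. A fold change on this scale understates the change of low genes. In bulk RNA, fewer cells that express a gene and less RNA of it per cell cannot be told apart.

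Of the 37 members, 20 passed the filter, 8 SOX and 12 KLF genes, and in each of them both group means were above 0.5 FPKM. SOX4, SOX9, SOX13, KLF2, KLF3 and KLF6 rose in shScamp1 cells and SOX8, SOX12 and KLF12 fell, so that 9 of 20 were called (limma, adjusted p under 0.05). Of all genes tested 14.0% were called, 8.82% higher and 5.17% lower, against 45.0% of the tested members, 6 of 20 higher and 3 of 20 lower. The members are all protein-coding, and the share of protein-coding genes called in this fit was not computed. In a separate fit of protein-coding genes only, with its own adjustment, 2626 of 11529 genes were called. They included 6 of 8 SOX and 4 of 12 KLF genes. None of the 9 changed by more than 1 on the log2 scale, which 3.16% of all tested genes did while also called. The changes of the called members ran in size from 0.34 to 0.92. The values of the groups did not overlap for 14 of the 20 members, 6 SOX and 8 KLF genes, and for 41.4% of all genes tested. The median log2 fold change was 0.39 over the 8 SOX genes, 0.01 over the 12 KLF genes and -0.02 over all genes tested. The called share was 5 of 8 for SOX and 4 of 12 (33.3%) for KLF genes.

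**Figure D1:**
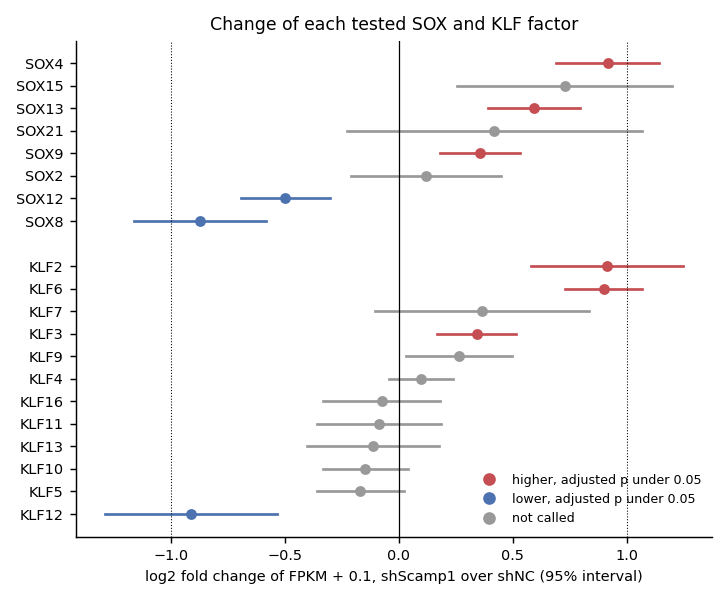
Log2 fold change of FPKM + 0.1 (shScamp1 over shNC, x axis) for the 8 SOX and 12 KLF factors tested, with the 95% interval from limma as a line and red or blue for genes called higher or lower. The called changes lie between -0.91 and 0.92, inside the dotted lines at an absolute change of 1. KLF2 and KLF6, of the activator group, stand highest among the KLF factors, while KLF5 of the same group stands below 0.

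The SoxC genes SOX4, SOX11 and SOX12 encode activators of progenitor cells, and SOX4 is known in many carcinomas for roles in survival and in the epithelial-mesenchymal transition. SOX4 (ENSG00000124766, chromosome 6, 21592768 to 21598619, 1 exon) stood at 11.0, 11.2 and 11.3 FPKM in shNC and at 19.3, 24.1 and 20.3 FPKM in shScamp1. The 3 knockdown libraries were all above the controls, by more than the whole spread within either group. The log2 fold change was 0.92 ± 0.09 (SE, limma, adjusted p = 0.0024), or 1.90-fold. SOX12 (ENSG00000177732, chromosome 20, 325595 to 330224, 1 exon), the weaker activator of the group, went the other way, with 6.55, 6.62 and 7.33 FPKM in shNC against 4.67, 5.11 and 4.64 FPKM in shScamp1. Its log2 fold change was -0.50 ± 0.08 (SE, limma, adjusted p = 0.0118). That call was lost on leaving out shNC replicate 1, 2 or 3 or shScamp1 replicate 3 (adjusted p = 0.0507 to 0.0584) and with the replicate number as a block (adjusted p = 0.0589). SOX11 had no read in any library.

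The SoxE genes SOX8, SOX9 and SOX10 encode activators of neural crest, gonad and cartilage, and SOX9 is also known for the progenitor cells of gut glands. SOX9 (ENSG00000125398, chromosome 17, 72121020 to 72126420) was the most abundant SOX gene, at 25.6, 27.1 and 27.7 FPKM in shNC and at 32.4, 36.6 and 33.9 FPKM in shScamp1. All knockdown libraries were above all controls, with a log2 fold change of 0.36 ± 0.07 (SE, limma, adjusted p = 0.0261). The call was lost without shNC replicate 1, 2 or 3 or shScamp1 replicate 3 (adjusted p = 0.0836 to 0.121) and with the replicate block (adjusted p = 0.0772). SOX8 (ENSG00000005513, chromosome 16, 981808 to 986979) fell from 6.45, 6.45 and 6.94 FPKM to 4.11, 3.03 and 3.62 FPKM, a log2 fold change of -0.87 ± 0.12 (SE, limma, adjusted p = 0.0068). Its lowest library, shScamp1 replicate 2, was the one in which SOX9 and SOX4 were highest. SOX10, the factor of melanocytes and Schwann cells, had 3 to 9 reads a library and was not tested.

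SOX13 (ENSG00000143842, chromosome 1, 204073115 to 204127743) was the one SoxD gene above the filter. SoxD proteins pair through a coiled coil and carry no known activation domain of their own. SOX13 rose from 3.05, 3.06 and 3.38 FPKM to 4.52, 5.04 and 4.90 FPKM, with a log2 fold change of 0.59 ± 0.08 (SE, limma, adjusted p = 0.0075). The groups did not overlap. Of its group, SOX6 had 2 to 10 reads a library and SOX5 none.

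The remaining SOX genes above the filter were not called. SOX2, the SoxB1 factor of the embryonic foregut and of pluripotent cells, stood at 2.28, 2.44 and 2.37 FPKM in shNC and at 2.23, 2.44 and 3.13 FPKM in shScamp1. The groups overlapped, the log2 fold change was 0.12 (95% interval -0.21 to 0.45, limma, adjusted p = 0.591), and without shScamp1 replicate 3 it was -0.02. SOX21, the SoxB2 factor that counters SoxB1 proteins, had 0.640 ± 0.193 FPKM in shNC and 0.873 ± 0.124 FPKM in shScamp1 (SD, n = 3 each), from 20 to 40 reads a library, and a log2 fold change of 0.42 (95% interval -0.23 to 1.07, limma, adjusted p = 0.335). SOX15 had 16 to 27 reads in shNC and 30 to 38 in shScamp1, at 0.902 ± 0.202 and 1.54 ± 0.134 FPKM (SD, n = 3 each), without overlap (log2 fold change 0.73, limma, adjusted p = 0.0570). Its exons overlap those of MPDU1 on the opposite strand, which stood at 7.99 ± 0.546 FPKM in shNC and 9.53 ± 0.151 FPKM in shScamp1 (SD, n = 3 each). Whether the counting used strand is not given in the sources used here, and the part of MPDU1 reads in the SOX15 values was not tested.

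**Figure D2:**
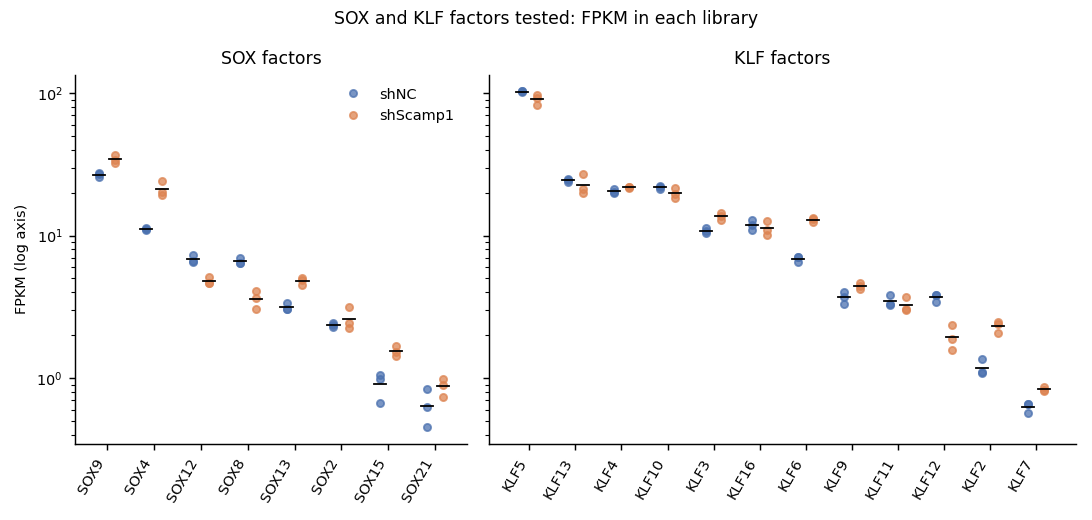
FPKM on a log axis (y) of the 8 SOX and 12 KLF factors tested (x, ordered by mean level in each family) in the 3 shNC and 3 shScamp1 libraries, with each library as a point and each group mean as a line. SOX9 and KLF5 stand at the top of their families, at group means of 26.8 and 34.3 FPKM and of 102 and 91.3 FPKM in shNC and shScamp1.

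Among the activator KLFs, KLF6 and KLF2 rose and none fell. KLF6, a factor of the injury response that is known for growth restraint in several carcinomas, is encoded on chromosome 10 from 3775996 to 3785281 (ENSG00000067082). It stood at 7.09, 7.06 and 6.48 FPKM in shNC and at 12.4, 13.3 and 13.0 FPKM in shScamp1, 1.88-fold higher. The log2 fold change of 0.90 ± 0.07 (SE, limma, adjusted p = 0.0010) had the smallest p of all members. KLF2 (ENSG00000127528, chromosome 19, 16324817 to 16327874), best known as the flow-induced factor of quiescent endothelium, was much lower in level. It had 35, 46 and 34 reads (1.09, 1.37 and 1.09 FPKM) in shNC and 71, 57 and 73 reads (2.41, 2.06 and 2.47 FPKM) in shScamp1. Its log2 fold change was 0.91 ± 0.14 (SE, limma, adjusted p = 0.0096). The KLF2 call was lost without shNC replicate 3 (adjusted p = 0.0501) and with the replicate block (adjusted p = 0.0542). The 3 endothelial markers were all under the filter, with sums of at most 0.235 FPKM in shNC and 0.612 FPKM in shScamp1. Both groups are the same carcinoma cell line, and a link of these low transcripts to KLF2 was not tested.

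The other activator KLFs were not called. KLF5 was the most abundant of all 37 members, at 101, 103 and 103 FPKM in shNC and at 83.2, 97.5 and 93.0 FPKM in shScamp1. The groups did not overlap, but the difference of -0.17 on the log2 scale (95% interval -0.36 to 0.02, limma, adjusted p = 0.202) missed the threshold. Without shScamp1 replicate 2 it was -0.22 (adjusted p = 0.0309). KLF4 stood at 20.0, 21.1 and 20.1 FPKM in shNC and at 22.1, 21.5 and 22.0 FPKM in shScamp1. All knockdown values lay just above the controls, and the 95% interval of the log2 fold change was -0.04 to 0.24 (limma, adjusted p = 0.309). KLF7, a factor of neurons and of adipose cells, went from 0.625 ± 0.0508 to 0.832 ± 0.0297 FPKM (mean ± SD, n = 3; limma log2 fold change 0.36, adjusted p = 0.256), without overlap. KLF1, the erythroid member, had 1 to 4 reads a library.

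The CtBP-binding repressors KLF3 and KLF12 changed in opposite directions. KLF3 (ENSG00000109787, chromosome 4, 38664196 to 38701042), a repressor with roles in fat, blood and epidermis, stood at 10.7, 10.4 and 11.3 FPKM in shNC and at 12.9, 13.7 and 14.5 FPKM in shScamp1. The groups did not overlap and the log2 fold change was 0.34 ± 0.07 (SE, limma, adjusted p = 0.0276). This was the least stable of the calls: it was lost without shNC replicate 1, 2 or 3 or shScamp1 replicate 3 (adjusted p = 0.0795 to 0.126), with the replicate block (0.0811), without the mean-variance trend (0.0501) and with libraries scaled to equal reads (0.0549). KLF12 (ENSG00000118922, chromosome 13, 73686089 to 73995056), first described as a repressor of the AP-2alpha gene, fell from 3.82, 3.82 and 3.42 FPKM to 1.57, 2.37 and 1.87 FPKM. Its log2 fold change was -0.91 ± 0.16 (SE, limma, adjusted p = 0.0143), and without shNC replicate 1, 2 or 3 or shScamp1 replicate 3 the adjusted p was 0.0554 to 0.0724. KLF12 and KLF5 lie on the same chromosome, with KLF5 at 73054976 to 73077542. KLF8, the other CtBP-binding member, stayed under the filter with 12 to 20 reads in shNC and 25 to 33 in shScamp1.

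None of the 5 SIN3-binding KLFs tested was called with all 6 libraries. KLF13, known from the chemokine genes of T cells, stood at 23.9, 24.9 and 24.5 FPKM in shNC and at 20.0, 27.1 and 21.2 FPKM in shScamp1. Replicate 2 of shScamp1, the library with the high mitochondrial share, stood above and the other knockdown libraries below all controls. The log2 fold change was -0.11 (95% interval -0.40 to 0.18, limma, adjusted p = 0.563), and without that replicate it was -0.25 (adjusted p = 0.0114). The part of that library's make-up in the KLF13 values was not tested beyond leaving it out. KLF10, the early gene of TGF-beta signalling, went from 21.9 ± 0.532 to 19.8 ± 1.59 FPKM (mean ± SD, n = 3; limma log2 fold change -0.15, adjusted p = 0.250), and the groups overlapped. KLF16 stood at 11.9 ± 0.933 and 11.3 ± 1.29 FPKM, and KLF11 at 3.46 ± 0.299 and 3.26 ± 0.377 FPKM (SD, n = 3 each), both with overlapping groups and log2 fold changes of -0.08 and -0.09. KLF9, which glucocorticoids and thyroid hormone induce, went from 3.70 ± 0.359 to 4.44 ± 0.228 FPKM (SD, n = 3 each) without overlap (log2 fold change 0.26, limma, adjusted p = 0.124).

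Of the 17 members not tested, 6 were at 0 in all libraries: SOX3, SOX5, SOX11, SOX14, SOX17 and KLF18. The other 11 (SOX1, SOX6, SOX7, SOX10, SOX18, SOX30, KLF1, KLF8, KLF14, KLF15 and KLF17) had at least 1 read and means under 0.5 FPKM. The groups of 3 of these 11 did not overlap. The share over all genes tested was 41.4%, but those genes lie above the filter, and the share among genes under it was not computed. SOX7, a factor of endothelium, had 26, 18 and 12 reads in shNC and 10, 8 and 1 in shScamp1. KLF8 had 12, 20 and 14 reads against 25, 31 and 33, and SOX6 had 10, 10 and 8 against 2, 5 and 4. KLF15, a factor of liver, muscle and fasting metabolism, had 6, 6 and 1 reads against 0, 0 and 1. With no filter on low values, the smallest adjusted p among the 11 was 0.257 (limma), so none of the 11 was called in that fit.

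Summed over all 19 genes, SOX expression was 57.3, 59.2 and 61.2 FPKM in shNC and 70.3, 79.3 and 73.4 FPKM in shScamp1, whereas the 18 KLF genes summed to 212 ± 1.99 and 207 ± 10.5 FPKM (SD, n = 3 each). These sums rest on few genes and are given without a test. SOX9 made up 45.2% ± 0.536 of the SOX sum in shNC and 46.1% ± 0.0606 in shScamp1 (SD, n = 3 each). The share of SOX4 went from 18.9% ± 0.417 to 28.5% ± 1.64, and those of SOX12 and SOX8 from 11.5% and 11.2% to 6.47% and 4.87%. KLF5 made up 48.4% ± 0.227 of the KLF sum in shNC and 44.1% ± 1.32 in shScamp1, and the share of KLF6 went from 3.25% ± 0.166 to 6.25% ± 0.0834 (SD, n = 3 each).

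**Figure D3:**
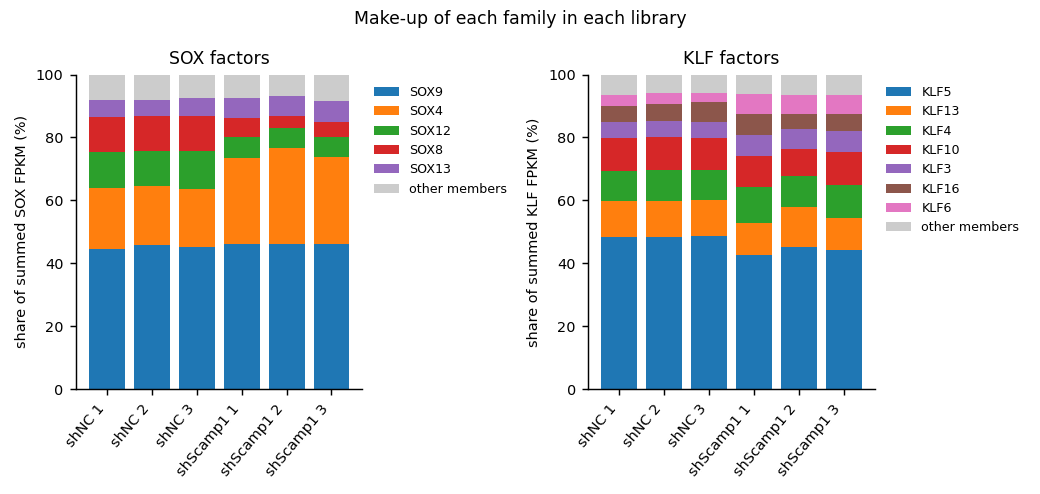
Share of each member (percent, y) in the summed FPKM of the 19 SOX genes (left) and the 18 KLF genes (right) in each of the 6 libraries (x). SOX4 widens from a mean of 18.9% to 28.5% and SOX8 and SOX12 narrow in shScamp1, while KLF5 holds 42.7% to 48.6% of the KLF sum in every library.

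A ratio of 2 genes within a library does not depend on how libraries are scaled, so the relatives that went in opposite directions were also set against each other. They were picked because of those directions, and the ratios are a description without a test. SOX4 was 1.68, 1.69 and 1.54 times SOX12 in the shNC libraries and 4.14, 4.72 and 4.38 times SOX12 in the shScamp1 libraries. The ratio of SOX9 to SOX8 was 3.97, 4.20 and 3.99 in shNC and 7.88, 12.1 and 9.34 in shScamp1. KLF3 stood at 2.80, 2.73 and 3.29 times KLF12 in shNC and at 8.26, 5.78 and 7.73 times KLF12 in shScamp1. The log2 ratios differed between the groups by 1.43, 1.25 and 1.29, against SDs within a group of at most 0.31.

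**Figure D4:**
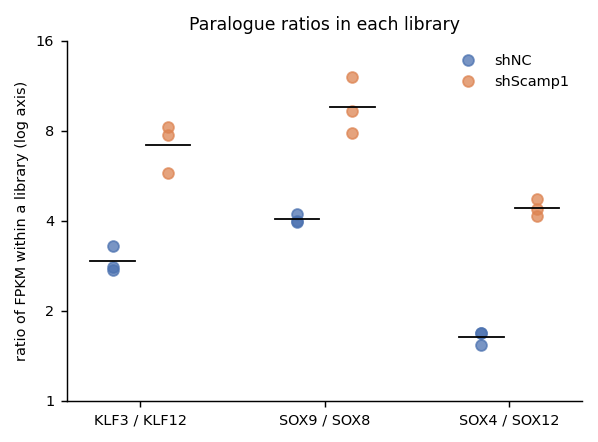
Ratio of FPKM within a library (y, log axis) for KLF3 over KLF12, SOX9 over SOX8 and SOX4 over SOX12, with the 3 shNC and 3 shScamp1 libraries as points and the geometric group mean as a line. The ratios of the shScamp1 libraries lie above those of the shNC libraries for each of the 3 pairs, with geometric means of 7.17 against 2.93, 9.62 against 4.05 and 4.41 against 1.64.

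Gene structure and promoters were read for what the members share. SOX4, SOX12, SOX2 and SOX21 were the 4 tested members with a single exon, and they included one that rose and one that fell. The exons of 5 tested members overlap those of another gene: KLF3 with KLF3-AS1, KLF11 with AC104794.4, KLF16 with AC012615.3, SOX4 with AL512380.2 and SOX15 with MPDU1. Apart from MPDU1 these partners were low or at 0, with at most 24 reads in a library for KLF3-AS1 and 2 for AL512380.2, beside at least 1068 reads on KLF3 and 1019 on SOX4 in every library. RefSeq promoters (GRCh38.p14, 250 bases before the start) were found for 26 of the 37 members, 6 of them called (KLF2, KLF6, KLF12, SOX4, SOX12 and SOX13). The GC box GGGCGG, the letters that SP and KLF proteins bind, stood on either strand in 17 of 26 (65.4%) member promoters and in 42.6% of all 35116 promoters. Among the 6 called members it was in 4, and among the 20 others in 13 (65.0%). The called members without it were KLF12 and SOX4. The KLF12 window (chr13:74306046-74306295, reverse strand) lay far upstream of the annotated gene, which ends at 73995056. The SOX4 window (chr6:21593501-21593750) lay inside the single exon of SOX4. Neither window shows the bases just before the annotated gene. The median GC content was 64.2% in the members' promoters and 58.0% in all promoters, which goes with the same letters. The CACCC box CCACCC was in 7 of 26 (26.9%) against 31.3% of all promoters, and the SOX core AACAAT in 3 of 26 (11.5%) against 8.98%. The stretches upstream of 2 members that rose, KLF2 (chr19:16324576-16324816, forward strand) and KLF6 (chr10:3785282-3785459, reverse strand), and of SOX12, which fell (chr20:325302-325551, forward strand), are shown up to any annotated exon, with the GC box, the CACCC box and their reverse complements in capitals.
KLF2 promoter: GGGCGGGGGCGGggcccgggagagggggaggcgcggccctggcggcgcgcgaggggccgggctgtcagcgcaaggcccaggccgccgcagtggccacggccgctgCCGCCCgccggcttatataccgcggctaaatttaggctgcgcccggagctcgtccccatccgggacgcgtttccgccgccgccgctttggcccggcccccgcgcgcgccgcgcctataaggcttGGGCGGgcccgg
KLF6 promoter: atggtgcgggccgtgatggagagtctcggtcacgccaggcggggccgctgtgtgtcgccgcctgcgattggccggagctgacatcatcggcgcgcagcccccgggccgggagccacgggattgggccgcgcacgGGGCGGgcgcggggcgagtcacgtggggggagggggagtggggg
SOX12 promoter: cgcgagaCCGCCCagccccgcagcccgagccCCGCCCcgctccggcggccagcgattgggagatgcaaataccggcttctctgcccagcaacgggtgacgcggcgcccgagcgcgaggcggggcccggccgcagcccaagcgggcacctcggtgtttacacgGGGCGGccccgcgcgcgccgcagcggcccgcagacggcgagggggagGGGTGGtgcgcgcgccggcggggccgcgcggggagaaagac
GC boxes thus stood upstream of genes that rose and of one that fell, 4 in the KLF2 stretch, 1 in that of KLF6 and 3 in that of SOX12.

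The nearest relatives outside both families were read from fixed lists. Of the 9 SP factors, which share the 3 zinc fingers and the GC box with the KLFs, 6 were tested, 1 rose and 1 fell. SP6, a factor of teeth and skin appendages, stood at 91.3 ± 2.27 FPKM in shNC and 132 ± 4.78 FPKM in shScamp1 (mean ± SD, n = 3; limma log2 fold change 0.53, adjusted p = 0.0045). SP5, a target and feedback repressor of Wnt signalling, fell from 16.9 ± 0.677 to 6.04 ± 1.32 FPKM (log2 fold change -1.49, limma, adjusted p = 0.0028). LEF1, one of the 3 TCF/LEF factors tested and the HMG-box partner of beta-catenin, fell from 2.01 to 0.735 FPKM (log2 fold change -1.35, limma, adjusted p = 0.0051), and 0 of the 3 rose. The median log2 fold change was 0.09 over the SP and 0.12 over the TCF/LEF genes tested.

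All 16 cofactors of KLF and SOX proteins on the list were tested, of which 2 rose and 4 fell (limma, adjusted p under 0.05), with a median log2 fold change of -0.07 over the 16. KAT2B, an acetyltransferase that works as a coactivator, rose from 1.96 to 3.86 FPKM (log2 fold change 0.94, adjusted p = 0.0017), and TLE4, a Groucho corepressor, by 0.46 (adjusted p = 0.0425). Its relative TLE2 fell from 1.42 to 0.409 FPKM (log2 fold change -1.59, adjusted p = 0.0060), and SAP30, a subunit of the SIN3 complex, had a log2 fold change of -0.61 (adjusted p = 0.0399). TLE2 passed the filter only through the shNC libraries, as its shScamp1 mean lay under 0.5 FPKM. CTBP1, CTBP2, SIN3A and SIN3B, the corepressors after which the KLF groups are sorted, were not called, with log2 fold changes from -0.16 to 0.23. Of the MEK5-ERK5-MEF2 route that induces KLF2 and KLF4, 1 of 7 genes tested rose, MEF2D (7.49 to 11.3 FPKM, log2 fold change 0.59, adjusted p = 0.0030), and 0 fell (median 0.16). Of 7 ubiquitin ligases known to act on KLF or SOX proteins, FBXO32 rose from 1.58 to 6.86 FPKM (log2 fold change 2.05, adjusted p = 0.000168) and 0 fell (median 0.27).

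Textbook targets of the factors mostly were low or not called. Of 13 SOX9 targets of cartilage, 12 were under the filter, COL2A1 and ACAN among them, and the 1 tested, the collagen gene COL9A3, fell from 6.16 to 1.07 FPKM (log2 fold change -2.47, limma, adjusted p = 0.0016) while SOX9 rose. Of 9 targets of KLF2, KLF4, KLF5 and KLF6 tested, NOS3, the endothelial nitric oxide synthase that KLF2 induces, rose from 0.304 ± 0.0435 FPKM in shNC to 1.66 ± 0.409 FPKM in shScamp1 (mean ± SD of 3 libraries), a log2 fold change of 2.10 (limma, adjusted p = 0.0040). NOS3 passed the filter only through the shScamp1 libraries, as its shNC mean lay under 0.5 FPKM. The other 8 were not called (median 0.05 over the 9), among them CDKN1A (log2 fold change 0.05) and CCND1 (0.36). Of 7 glucocorticoid receptor targets tested, a list made for KLF9, 4 rose and 0 fell: TSC22D3 (log2 fold change 1.27, adjusted p = 0.0017), DUSP1 (0.62, 0.021), SGK1 (0.49, 0.0368) and PER1 (0.40, 0.0362), with a median of 0.40 over the 7. FKBP5, a sensitive target of the same receptor, had a log2 fold change of -0.31 (limma, adjusted p = 0.147). Of the 7 pluripotency partners of SOX2 and KLF4, only MYC passed the filter, at 124 ± 3.65 and 91.1 ± 17.2 FPKM (mean ± SD, n = 3; limma log2 fold change -0.47, adjusted p = 0.0861).

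**Figure D5:**
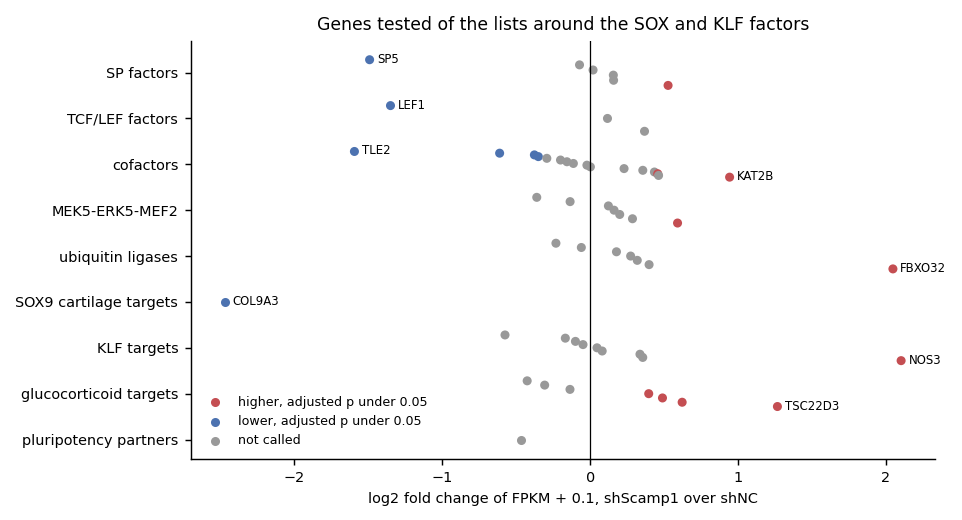
Log2 fold change of FPKM + 0.1 (shScamp1 over shNC, x axis) for each tested gene of the lists around the SOX and KLF factors (y), in red or blue where called higher or lower, with names for called genes past 0.9 in size. SP5, LEF1, TLE2 and COL9A3 lie on the lower side at -1.49, -1.35, -1.59 and -2.47, and FBXO32, NOS3, TSC22D3 and KAT2B on the higher side at 2.05, 2.10, 1.27 and 0.94.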

How the data were processed

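Total RNA of NCI-N87 cells was sequenced in 6 libraries, 3 of shNC and 3 of shScamp1. The authors deposited 1 FPKM value per gene and library. The submitters' processing notes name HISAT2 2.0.5, featureCounts 1.5.0-p3, DESeq2 1.20.0 and hg38, without roles. All 58735 genes had the coordinates of GENCODE 29. No column of library values was left unused.

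Log2(FPKM + 0.1) was fitted in R 4.3.3 with limma 3.58.1 (lmFit and eBayes with trend, two-sided) for genes whose mean reached 0.5 FPKM. These 15556 genes held 99.5% of the reads, and Benjamini-Hochberg adjustment covered them all. The method was tested on simulated reads. Levels given without a list of libraries are means ± SD. Overlaps, sequences and figures were made in Python 3.11.15 with pandas 2.3.3, numpy 2.4.6 and matplotlib 3.10.9.

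The members, gene lists and tests were chosen with earlier results of these data known. All members are accounted for, with each library's value for called members and for the 3 highest of each family, and up to 4 called genes are named per list with genes whose exons overlap a member. SOX2, SOX6, SOX7, KLF8 and KLF15 by library, KLF2P1, FAR2P1, FKBP5, CDKN1A, CCND1, COL2A1, ACAN and the CtBP and SIN3 genes fall outside that rule and were named after their values were seen. Alternatives covered the pseudocount, filter, trend, scaling, voom on recovered reads, biotypes, the replicate block and leaving out each library. The labels do not say whether the replicate numbers pair the libraries. Deviations of same-numbered libraries from their group means correlated at -0.04, 0.03 and 0.07, and those of differently numbered libraries at -0.08 to 0.05. Such weak correlations give no clear sign of pairing but cannot exclude it.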

Additional observations from a re-analysis of the deposited data

How the results depend on the processing

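Over 16 alternatives, 4 of the 9 called members (SOX4, SOX8, SOX13 and KLF6) were called in every one, the other 5 lost the call in at least 1, and none of the 9 changed direction. Among members not called, SOX2 turned to -0.0157 without shScamp1 replicate 3 (-0.0157 to 0.22 over the libraries left out), and 4 passed the threshold in 1 alternative each: KLF5 and KLF13 without shScamp1 replicate 2, KLF7 without the trend (adjusted p = 0.0492) and SOX15 with only protein-coding genes fitted (adjusted p = 0.0245). SOX21 and KLF7 could not be fitted at a mean of at least 1 FPKM. With the replicate number as a block, 958 genes were called in place of 2177, with 3 SOX and 2 KLF genes, and SOX9, SOX12, KLF2 and KLF3 lost their calls. Leaving out a library gave 808 to 4330 genes (808 without shNC replicate 2, 4330 without shScamp1 replicate 2), 3 to 5 SOX genes and 1 to 6 KLF genes (1 without shNC replicate 3, 6 without shScamp1 replicate 2). An absolute log2 fold change above 1 left 492 genes, 0 SOX and 0 KLF, and an unadjusted p under 0.05 gave 4782 genes, 6 SOX and 5 KLF. Voom on recovered reads called 2759 genes. Scaling to equal recovered reads turned the split of calls from 1372 higher and 805 lower to 1138 higher and 1268 lower, with KLF3 lost. The causes were not tested. Depth limits the members under the filter and KLF2, SOX15 and SOX21, which rest on under 75 reads a library.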

Other observations

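Transcripts named for a member were low apart from a pseudogene. Of 18 such transcripts 2 were tested and 0 were called. SOX2-OT, the long transcript around SOX2, stayed under 0.0116 FPKM. The processed pseudogene KLF2P1 stood at 27.2 ± 0.938 FPKM in shNC and 30.4 ± 1.35 FPKM in shScamp1 (SD, n = 3 each; log2 fold change 0.16, limma, adjusted p = 0.168), above KLF2 itself at 1.18 and 2.31 FPKM. Its longest run of bases identical to the KLF2 transcript was 28. It lies within the locus of FAR2P1 on the opposite strand without exon overlap, and FAR2P1 stood at 8.94 and 11.0 FPKM.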
